A study of Mus musculus with 5 samples.

Results

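The genes described here are 3 ligands of the fibroblast growth factor (FGF) family, Fgf4, Fgf5 and Fgf15, and 2 inhibitors of the signal that FGFs start, Spry2 and Dusp6. They were chosen by name: a probe belonged to a gene where the array's annotation gave it that symbol. All 5 were found among 16032 named genes, each through 1 probe that had a value on all 5 arrays. All 5 were also among the 10589 genes bright enough to enter the main comparison.

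Gene expression had been measured in total RNA of mouse embryonic stem (ES) cells, which are derivatives of the feeder-free male line E14tg2a of strain 129. Every culture carried myr-Akt-Mer, Akt with a myristoyl anchor, joined to a modified oestrogen receptor so that 4-hydroxytamoxifen (4OHT) turns the kinase on. The 5 arrays held line 21 ES cells without 4OHT, line 21 ES cells with 1 µM 4OHT, Akt-spheres of line 21, Akt-spheres of line 42, and ES-like cells that had been recovered from line 21 spheres on mouse embryonic fibroblasts with 4OHT (reverted cells). Akt-spheres, labelled as resembling primordial germ cells, grew on OP9 stromal cells in medium with 1 µM 4OHT, which began 3 days before induction. They were passaged every 4 days and freed of OP9 cells by 30 min on a dish. Line and replicate cannot be told apart in the spheres, the other groups have 1 array each, and line 42 ES cells are not analysed here. Nothing says that the arrays came from repeated cultures, so each p-value reflects the scatter among these arrays alone, part of which may be technical.

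In ES cells Fgf4 is the main FGF that the cells make themselves; through FGF receptors and the Ras, Raf, MEK and ERK kinase cascade it readies them to leave the naive pluripotent state. Fgf5 is made as cells pass into the primed state of the early postimplantation epiblast. ERK in turn induces its own brakes, among them the Sprouty proteins, which act between receptor and Raf, and the dual-specificity phosphatase Dusp6, which removes the activating phosphates from ERK.

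Values are deposited probe intensities on a linear scale, with a median of 50 on each array. The arrays held 22871 probes each and their intensities summed to between 15213653 and 19321075, and 6.09% to 9.11% of the probes had no value. Genes under the 40th percentile of every array compared, an intensity of 28.6 to 29.3, were left out of that comparison. Differences are on the log2(intensity + 1) scale and understate the change of dim probes. The 12 ES cell markers, all on the array, summed to between 94970 and 110236 on the ES-type arrays (both ES cultures and the reverted cells) and to 14253 and 24134 in spheres of lines 21 and 42. Nanog, a factor of ES cells and early germ cells, lay between 3839 and 5523 on all arrays. The 12 primordial germ cell markers summed to between 5311 and 8848 on ES-type arrays and to 8585 and 15350 in spheres, and without Dppa3, which had 9198 in line 42 spheres, to between 5139 and 7222 and to 8362 and 6152. The 18 markers of OP9 stroma and fibroblasts summed to between 4262 and 5463 on ES-type arrays and to 4200 and 3640 in spheres. Of the 18, 12 were bright enough to compare. Limma called 0 higher and 2 lower in spheres, Thy1 and Acta2, beside 1.47% of all genes called lower. The brightest in spheres was Vim, at 1597 and 2815 against 567 to 1870 on ES-type arrays. Col5a1 had 310 and 171 in spheres, 329 in reverted cells, and 86.7 and 69.4 in the ES cultures, while Prrx1 and Fbln2 were no higher than 10.02 or without a value on every array. In cultures of many cells, fewer cells of a type and less RNA per cell cannot be told apart.

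Of the ligands, Fgf4 fell in spheres, Fgf5 had its highest values there without passing the test, and Fgf15 differed between the sphere lines. Fgf4 had an intensity of 278 in ES cells without 4OHT, 362 with 4OHT, 124 in reverted cells, against 18.3 and 7.66 in the spheres of lines 21 and 42. Both sphere lines lay below every ES-type array, and the groups did not overlap, though the share of all genes so placed was not counted. Across the 2 sphere arrays and the 3 ES-type arrays, Fgf4 was 18.0-fold lower in spheres (log2 -4.17, SE 0.57, limma adjusted p = 0.0311, n = 2 and n = 3). Only 0.302% of the genes compared were as far or farther down. Fgf4 was the 1 of the 5 genes that limma called here, beside 2.44% of all genes. Both sphere values lay under the level that let a gene into the comparison, so Fgf4 entered through the ES-type arrays alone. The call was lost when 1 array was left out, be it ES cells without 4OHT (adjusted p = 0.146), ES cells with 4OHT (0.0986) or line 42 spheres (0.0904), and the difference stayed between -4.77 and -3.56 with any 1 array left out.

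Fgf5 had an intensity of 23.9 in ES cells without 4OHT, 17.5 with 4OHT, 119 in reverted cells, against 232 and 161 in the spheres of lines 21 and 42. The sphere arrays were the highest and did not overlap with the ES-type arrays, but the reverted cells lay near them and far from both ES cultures. How many of all genes show no overlap was not counted. Against the 3 ES-type arrays the difference was log2 2.36 (SE 0.80, limma adjusted p = 0.196, 5.12-fold higher). Without the reverted cells it was log2 3.17 with a limma adjusted p = 0.0257. Both ES cultures lay under the level of the filter on dim probes, so Fgf5 entered the main comparison through spheres and reverted cells. In the fit without reverted cells, the ES-type array nearest to the spheres was left out, and Fgf5 entered through the spheres alone. That p-value is therefore not read as a call of Fgf5.

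Fgf15, a ligand of the hormone-like branch of the family that in the embryo is known from the developing brain, had an intensity of 122 in ES cells without 4OHT, 24.4 with 4OHT, 290 in reverted cells, 458 in line 21 spheres and 22 in line 42 spheres. The highest and the lowest array were thus the 2 sphere lines, with every ES-type array between them. How many of all genes are so placed was not counted. The line 21 spheres were log2 2.28 above the mean of the ES-type arrays and the line 42 spheres fell by 2.10 below it. The pooled difference was log2 0.09 (SE 1.52, limma adjusted p = 0.983), and it was -2.10 without line 21 spheres, -0.91 without ES cells with 4OHT and 2.28 without line 42 spheres.

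The sequences before the start sites of Fgf4 and Fgf5 are shown because these ligands lay at opposite ends in spheres. Each line gives the 250 bases before the start in the RefSeq promoter table of GRCm38.p6, 5′ to 3′ on the gene's strand, with matches to searched motifs in capitals. Fgf4 lies at chr7:144861136-144861385 on the plus strand and Fgf5 at chr5:98253934-98254183 on the plus strand.
Fgf4: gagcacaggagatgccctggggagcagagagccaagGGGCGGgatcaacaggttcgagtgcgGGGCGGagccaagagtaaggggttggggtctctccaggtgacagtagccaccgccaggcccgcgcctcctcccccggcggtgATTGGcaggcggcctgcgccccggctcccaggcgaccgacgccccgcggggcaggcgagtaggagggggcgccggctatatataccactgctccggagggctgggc
Fgf5: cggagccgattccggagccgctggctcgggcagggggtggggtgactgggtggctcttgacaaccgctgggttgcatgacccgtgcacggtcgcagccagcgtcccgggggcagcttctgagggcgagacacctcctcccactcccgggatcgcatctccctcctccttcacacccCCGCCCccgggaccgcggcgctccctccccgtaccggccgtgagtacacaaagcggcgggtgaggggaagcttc
The motifs searched on both strands were the ETS motif CCGGAAG, the E-box CACGTG, the AP-1 site TGANTCA, the TATA box TATAAA and, chosen after the sequences were seen, the GC box GGGCGG and the CCAAT box. In all 32851 promoters of this length in the table they occurred in 6.91%, 6.02%, 6.75%, 12.4%, 32.7% and 33.8%. None of the first 4 occurred in the sequences of Fgf4, Fgf5, Spry2 or Dusp6, the 4 of the 5 genes matched in the table. Only these exact letters were searched. The stretch tatatata near the end of the Fgf4 sequence therefore did not count, and the absence of TATAAA does not exclude variants of the TATA box. The Fgf4 sequence held the GC box on the plus strand with its first base at -214 and at -188, counted from the start, and the CCAAT box on the opposite strand at -106. The Fgf5 sequence held 1 GC box on the opposite strand at -74. G and C made up 71.2% of the Fgf4 sequence, 70.8% of that of Fgf5, 62.4% of that of Spry2 (chr14:105896820-105897069, minus strand) and 56.4% of that of Dusp6 (chr10:99262981-99263230, plus strand), against a median of 52.4% over all promoters. A match is a description of letters, not a bound site.

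The 2 feedback inhibitors had lower means in spheres without passing the test. Spry2 had an intensity of 154 in ES cells without 4OHT, 158 with 4OHT, 499 in reverted cells, against 138 and 38.6 in the spheres of lines 21 and 42. The reverted cells stood above all other arrays and the line 42 spheres below them, while line 21 spheres lay just under the 2 ES cultures. Against the 3 ES-type arrays the difference was log2 -1.63 (SE 0.73, limma adjusted p = 0.303, 3.10-fold lower), and it was -0.70 without line 42 and -2.57 without line 21 spheres, or -1.08 without reverted cells. The gap between the sphere lines, 3.65-fold, was wider than that difference.

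Dusp6 had an intensity of 758 in ES cells without 4OHT, 656 with 4OHT, 833 in reverted cells, against 517 and 268 in the spheres of lines 21 and 42. Both sphere arrays lay below the 3 ES-type arrays, which spanned a narrower range than the sphere lines did. The share of all genes with both sphere arrays below was not counted. The difference was log2 -0.995 (SE 0.35, limma adjusted p = 0.211, 1.99-fold lower), and it was -0.50 without line 42 and -1.49 without line 21 spheres. By size alone, 2 of the 5 genes were at least 2-fold apart from the ES-type mean the same way in both sphere lines, Fgf4 lower and Fgf5 higher, beside 9.05% of all genes. In that comparison Fgf4 entered through the ES-type arrays alone and Fgf5 through spheres and reverted cells.

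**Figure D1:**
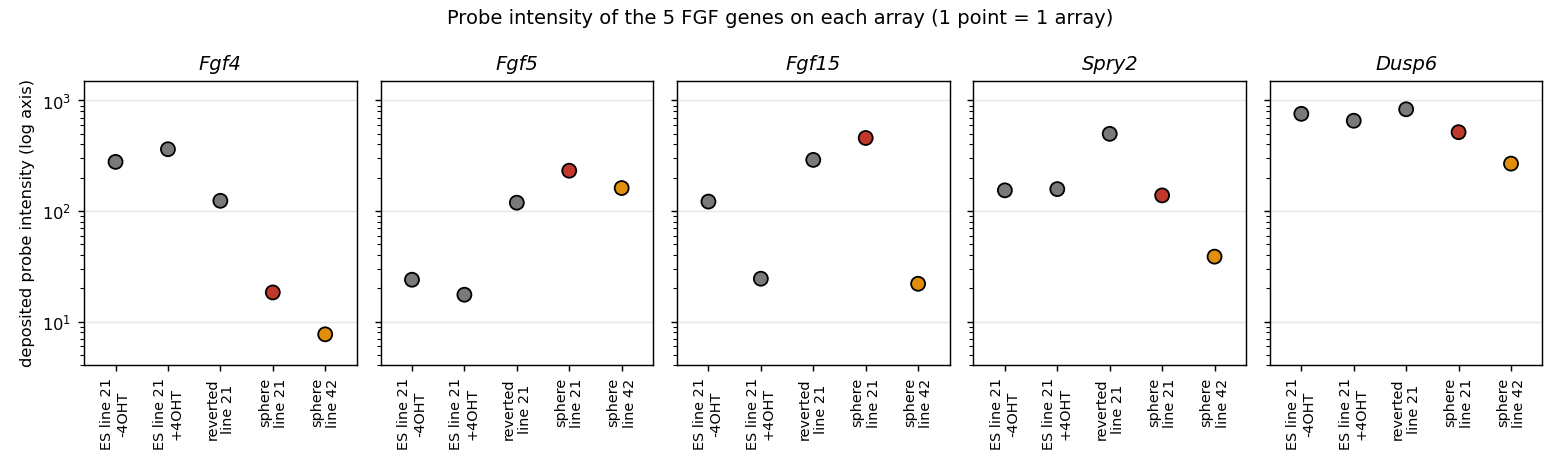
Deposited probe intensity (log axis) of Fgf4, Fgf5, Fgf15, Spry2 and Dusp6 on each of the 5 arrays, 1 point per array. Fgf4 falls to 18.3 and 7.66 in spheres, Fgf5 is highest there at 232 and 161, and Fgf15 has both its highest (458) and its lowest (22) value in a sphere line.

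Read in order of level, the steps between arrays can be set against the gap between the 2 sphere lines, the only repeated condition. Fgf4 gives no such gap, since both sphere lines lay under the level of the filter on dim probes. Its ES cultures without and with 4OHT were 1.18-fold apart, and reverted cells lay 2.40-fold below ES cells without 4OHT. For Fgf5 the gap was 1.49-fold, and line 42 spheres and reverted cells were closer than that (1.35-fold), whereas reverted cells lay 4.50-fold above ES cells without 4OHT. For Fgf15 the gap of 20.7-fold was wider than every other difference between arrays. For Spry2 the gap of 3.65-fold was wider than the step from ES cells without 4OHT to reverted cells (3.02-fold). For Dusp6 the gap of 1.99-fold was wider than any other step between neighbouring arrays.

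Spheres were then set against each ES-type array in turn, which share the sphere arrays and so are given side by side. Here limma used the spread of the 2 sphere lines for all groups. It called 0% of genes in each: against ES cells without 4OHT, with 964 genes at an unadjusted p under 0.05 and a smallest adjusted p of 0.183; against ES cells with 4OHT, with 1212 and 0.152; and against reverted cells, with 920 and 0.22. Genes at least 2-fold apart in both sphere lines made up 10.5%, 12.8% and 10% of those compared. Against both ES cultures, 2 of the 5 genes met that rule, Fgf4 lower and Fgf5 higher. Against reverted cells 2 of 5 met it too, Fgf4 and Spry2, both lower. In each comparison Fgf4 entered through the ES-type array alone, and against the ES cultures Fgf5 entered through spheres alone. Each thus entered through the group where it was high, so these counts depend on the filter.

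Fgf4 in spheres was 22.7-fold below ES cells without 4OHT (log2 -4.51, SE 0.65, limma adjusted p = 0.243), 26.9-fold below ES cells with 4OHT (-4.75, 0.174) and 9.48-fold below reverted cells (-3.24, 0.31). Fgf5 was 7.41-fold above ES cells without 4OHT (2.89, limma adjusted p = 0.258), 11.0-fold above ES cells with 4OHT (3.46, 0.174) and 1.65-fold above reverted cells (0.72, 0.807). Spry2 was 6.62-fold below reverted cells (-2.73, limma adjusted p = 0.509), against -1.13 and -1.03 for ES cells without and with 4OHT. Dusp6 differed by similar amounts from the 3, at -1.10, -0.75 and -1.13. Fgf15 differed by -0.33 from ES cells without 4OHT, 2.08 from those with 4OHT and -1.48 from reverted cells.

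**Figure D2:**
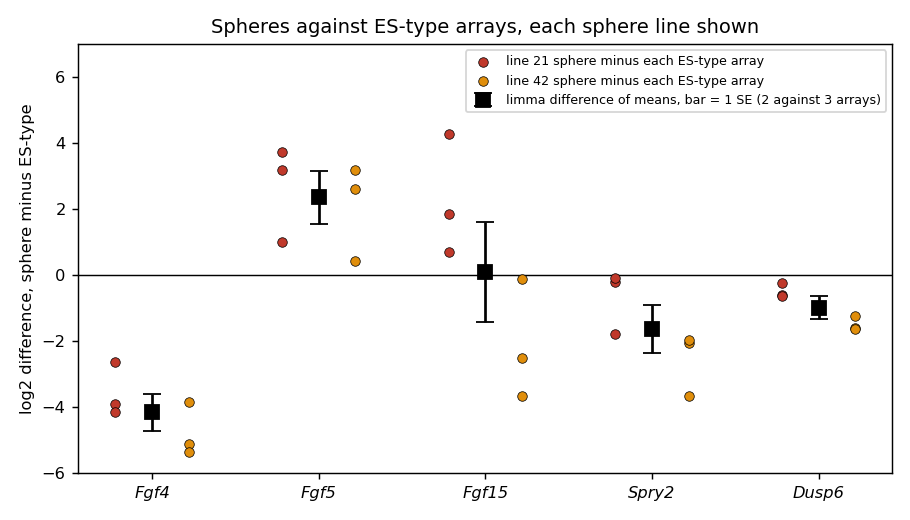
Log2 difference of each sphere line from each ES-type array for the 5 genes; points above 0 are higher in spheres. Fgf4 is lower and Fgf5 higher in every pairing, while the line 21 and line 42 points of Fgf15 stand 4.38 log2 units apart.

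Comparing ES cells with and without 4OHT asks what switching on Akt did under ES culture conditions, with 1 array each and hence no replicate check. Of the 4 genes bright enough to compare, 1 was at least 2-fold apart, Fgf15, which was 5.31-fold lower with 4OHT (log2 -2.41), beside 4.95% of all genes. Only 0.244% of genes were as far apart. With 4OHT, Fgf15 lay under the level of the filter on dim probes, so it entered through ES cells without 4OHT alone. Fgf4 was 1.18-fold higher, Spry2 differed by log2 -0.10 and Dusp6 by -0.34. Fgf5 was too dim on both arrays to be compared. Of all genes at least 2-fold apart, 252 were higher and 236 lower with 4OHT, and without centring the arrays 363 and 166, since the median over all genes then moved from -0.03 to 0.11. The direction of the Fgf15 difference was the same under that scaling.

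Comparing reverted cells with ES cells without 4OHT asks how far the ES-like state resembled the starting one, again with 1 array each. Reverted cells were also recovered with 4OHT, at a dose and timing that are not clear, and on fibroblasts. The part of 4OHT, fibroblasts and state cannot be told apart. Here 4 of the 5 genes were at least 2-fold apart, beside 11.5% of all genes. Fgf5 was 4.50-fold, Spry2 3.02-fold and Fgf15 2.22-fold higher in reverted cells, and Fgf4 was 2.40-fold lower. Fgf5 lay under the level of the filter in ES cells without 4OHT, so it entered through reverted cells alone. Dusp6 differed by log2 0.04. Against ES cells with 4OHT, Fgf5 was 6.66-fold, Spry2 3.23-fold and Fgf15 11.8-fold higher in reverted cells, and Fgf4 was 2.84-fold lower. Fgf5 and Fgf15 both lay under the level of the filter in ES cells with 4OHT. The stromal and fibroblast markers summed to 5463 in reverted cells and 5440 in ES cells without 4OHT, and of the 12 compared 3 were at least 2-fold higher and 2 lower in reverted cells. S100a4 had 361 in reverted cells against 19.6, and Vim had 567 against 1870. Their part in these differences was not tested. Without centring, the median over all genes in this comparison moved from 0.00 to 0.10.

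Between the sphere lines, also 1 array each, 2 of the 4 genes compared were at least 2-fold apart, beside 15.7% of all genes, and both were lower in line 42, beside 7.81% of all genes in that direction. They were Fgf15, 20.7-fold lower, and Spry2, 3.65-fold lower. In line 42 Fgf15 lay under the level of the filter on dim probes, so it entered through line 21 spheres alone. Dusp6 was 1.99-fold and Fgf5 1.49-fold lower, and Fgf4 was too dim in both lines to be compared. Of the 9 stromal and fibroblast markers compared between these arrays, 1 was at least 2-fold higher in line 42 and 3 lower. S100a4 of that list had 280 in line 21 and 8.69 in line 42, while Vim had 1597 and 2815. Of the 9 primed epiblast markers compared, 0 were at least 2-fold higher in line 42 and 7 lower. The part of these markers in the difference was not tested.

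The rest of the pathway was described from lists of FGF ligands, receptors and co-receptors, members of the ERK cascade, feedback inhibitors and ERK-induced genes. Of the 22 listed ligands, 20 were on the array and 11 were bright enough to compare. Limma called 0 higher and 1 lower in spheres, Fgf4, beside 1.47% of all genes called lower. The median difference was log2 -0.13, against 0.00 over all genes. Fgf8, an FGF of the early embryo that signals in gastrulation, had intensities of 46.9, 52.7 and 66.0 in ES cells without 4OHT, ES cells with 4OHT and reverted cells, against 141 and 108 for the sphere lines (log2 1.17, SE 0.26, limma adjusted p = 0.0875). Fgf17, of the same subfamily, had a difference of -0.13 (limma adjusted p = 0.924). Fgf3 lay between 26.6 and 46.9 on ES-type arrays and at 19.6 and 4.08 in spheres (log2 -1.82, limma adjusted p = 0.204). It entered through the ES cultures without and with 4OHT alone. Fgf18 differed by -1.38 (limma adjusted p = 0.375) and Fgf13, a family member that stays inside the cell, by -0.56 (0.819). Fgf18, Fgf13 and Fgf15 were the 3 of 9 ligands at least 2-fold lower in ES cells with 4OHT than without (log2 -1.55, -1.02 and -2.41), beside 2.4% of all genes in that direction. With 4OHT, Fgf13 and Fgf15 lay under the level of the filter. Between the sphere lines, 5 of 8 ligands compared were at least 2-fold lower in line 42 than in line 21, beside 7.81% of all genes. Of these, only Fgf17 lay above the level of the filter in line 42.

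Of the 12 receptors, co-receptors and binding proteins, 7 were compared and limma called 0 in either direction, with 3 of 7 at an unadjusted p under 0.05, beside 18.9% of all genes. Their median difference was log2 0.44, against 0.00 over all genes. Fgfr1, the receptor through which ES cells mainly sense Fgf4, had intensities of 147 to 187 on ES-type arrays and of 217 and 294 in spheres (log2 0.65, limma adjusted p = 0.248). Fgfr2 had 38.4, 30.3 and 15.5 on the ES-type arrays and 88.9 and 142 for the sphere lines (log2 2.06, SE 0.45, limma adjusted p = 0.0795, 4.16-fold). Both sphere lines were thus above every ES-type array for either receptor, though the share of all genes so placed was not counted. Fgfr4 lay between 15.2 and 36.6 on ES-type arrays and at 9.41 and 9.97 in spheres (log2 -1.09, limma adjusted p = 0.19), and Fgfr3 was too dim to compare, at 4.71 to 12.9. Fgfr4 entered through ES cells with 4OHT alone. Fgfbp1, a secreted protein that carries FGFs, had 1988 in reverted cells, 410 and 291 in the ES cultures without and with 4OHT, while the sphere lines had 162 and 187 (log2 -1.82, limma adjusted p = 0.297).

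In the ERK cascade 19 of 22 listed genes were on the array and 15 were compared. Limma called 0 higher and 1 lower, Gab1, beside 1.47% of all genes called lower. The median was log2 0.08, against 0.00 over all genes. Gab1, a docking protein that links receptors to the phosphatase Shp2 and to PI3-kinase, had intensities of 3059 in ES cells without 4OHT, 3605 with 4OHT, 3946 in reverted cells, against 137 and 252 in the spheres of lines 21 and 42. The groups did not overlap, though the share of all genes so placed was not counted. Gab1 fell 18.8-fold (log2 -4.23, SE 0.31, limma adjusted p = 0.00787). That call was lost when ES cells without 4OHT were left out (adjusted p = 0.0698), where limma called 0 of all genes and 1316 had an unadjusted p under 0.05. The next largest differences were those of the kinases Rps6ka1 (-0.75, limma adjusted p = 0.476), Map2k2, which is MEK2 (0.59, 0.214), and Rps6ka3 (0.55, 0.39).

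**Figure D3:**
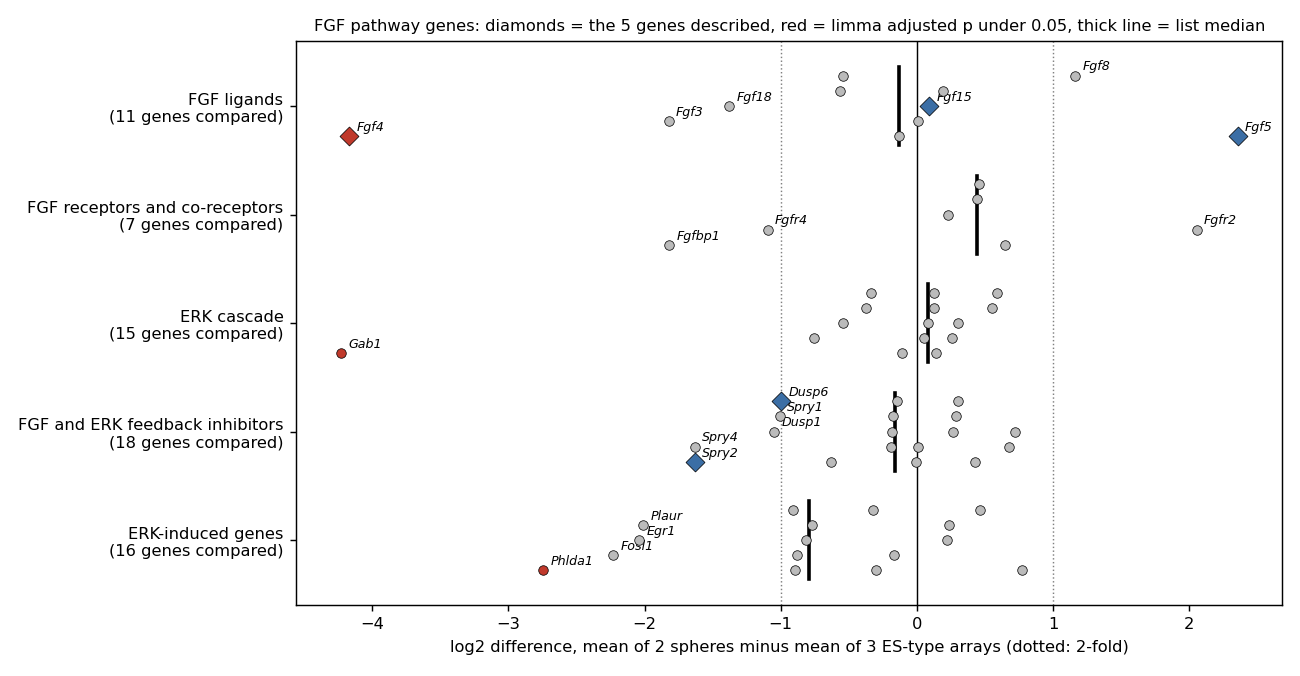
Log2 difference, spheres minus the mean of the 3 ES-type arrays, for every compared gene of the 5 pathway lists, with the genes limma called marked. The called genes are Fgf4 (-4.17), Gab1 (-4.23) and Phlda1 (-2.74), all lower in spheres.

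Of 23 listed feedback inhibitors, 22 were on the array and 18 were compared, and limma called 0 in either direction, with 3 of 18 at an unadjusted p under 0.05, near the share of all genes. Their median was log2 -0.16, against 0.00 over all genes. Spry4 had intensities of 70.0, 60.7 and 49.2 in ES cells without 4OHT, with 4OHT and reverted cells, against 13.6 and 24.8 for the sphere lines (log2 -1.63, SE 0.33, limma adjusted p = 0.0684). It was the 1 feedback inhibitor that lay 2-fold or more below the ES-type mean in each line, and as both sphere values lay under the level of the filter, it entered through the ES-type arrays alone. Spry1 had 71.3, 26.1 and 65.2 on those ES-type arrays and 27.3 and 21.4 in spheres (log2 -1.01, limma adjusted p = 0.346), and it was log2 -1.55 lower in ES cells with than without 4OHT. Spry1 reached the level of the filter only in ES cells without 4OHT and in reverted cells. Spry3 differed little between arrays, at 44.7 to 62.5 (log2 -0.15, limma adjusted p = 0.797). Among the phosphatases Dusp1 differed by -1.05 (limma adjusted p = 0.419) and Dusp2 by 0.72 (0.422), while Dusp7 (-0.18, 0.817) and Dusp9 (-0.19, 0.764) differed by less and Dusp4 lay between 86.5 and 131 on all arrays (limma adjusted p = 0.996). Dusp2 entered through spheres and reverted cells alone.

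In reverted cells 4 of 18 feedback inhibitors were at least 2-fold higher than in ES cells without 4OHT, beside 5.18% of all genes, and 0 were lower, beside 6.34%. They were Spry2 (log2 1.59), Dusp1 (1.88), Dusp2 (1.14) and Dusp14 (1.96), the last named after its values were seen. Dusp2 lay under the level of the filter in ES cells without 4OHT, so here it entered through reverted cells alone. Dusp1, which acts on several MAP kinases, had an intensity of 1495 in reverted cells and of 257 to 449 on the other arrays. Dusp14 had 282 in reverted cells and 59.2 to 70.0 elsewhere. Spheres were at least 2-fold lower than reverted cells in both lines for 4 of 18 feedback inhibitors and 6 of 16 ERK-induced genes, beside 5.81% of all genes in that direction.

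Of 20 listed ERK-induced genes, 19 were on the array and 16 were compared. Limma called 0 higher and 1 lower, Phlda1, beside 1.47% of all genes called lower. The median was log2 -0.79, against 0.00 over all genes. By size, 4 of the 16 lay 2-fold or more below the ES-type mean in each line and 0 above it, beside 5.21% of all genes lower. These 4 were Phlda1, Fosl1, Egr1 and Plaur, and they met that rule with any 1 ES-type array left out. Phlda1, an early-response gene, had intensities of 107, 232 and 340 in ES cells without 4OHT, with 4OHT and reverted cells, against 32.6 and 26.8 in spheres of lines 21 and 42. It fell 6.69-fold (log2 -2.74, SE 0.47, limma adjusted p = 0.0489), and the adjusted p lay between 0.0569 and 0.148 with any 1 of the 5 arrays left out. Egr1, an early-response transcription factor, had 294, 225 and 542 on the ES-type arrays and 85.2 and 73.8 in spheres (log2 -2.04, limma adjusted p = 0.0677). Fosl1, an AP-1 subunit, had 21.5, 36 and 63.9 and then 9.17 and 5.35 in spheres (log2 -2.23, limma adjusted p = 0.0749), and it entered the comparison only through ES cells with 4OHT and reverted cells. Plaur, the urokinase receptor, had 497, 758 and 833 and then 235 and 119 (log2 -2.01, limma adjusted p = 0.0602). All 4 had both sphere lines below every ES-type array, but they were picked by size on these same arrays. The share of all genes so placed was not counted.

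Etv4 and Etv5, ETS factors that FGF signalling induces in many embryonic tissues, did not share that pattern. Etv4 had intensities of 159, 245 and 323 on the ES-type arrays, 246 in line 21 spheres and 61.3 in line 42 spheres (log2 -0.91, limma adjusted p = 0.499). Etv5 had 224, 274 and 209, and then 156 and 231 (log2 -0.30, limma adjusted p = 0.61). For both genes the sphere arrays overlapped with the ES-type arrays. In reverted cells 3 of 16 ERK-induced genes were at least 2-fold above ES cells without 4OHT and 0 below, beside 5.18% and 6.34% of all genes, with Phlda1 at log2 1.56 and Fosl1 at 1.43. Fosl1 lay under the level of the filter in ES cells without 4OHT, so here it entered through reverted cells alone.

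**Figure D4:**
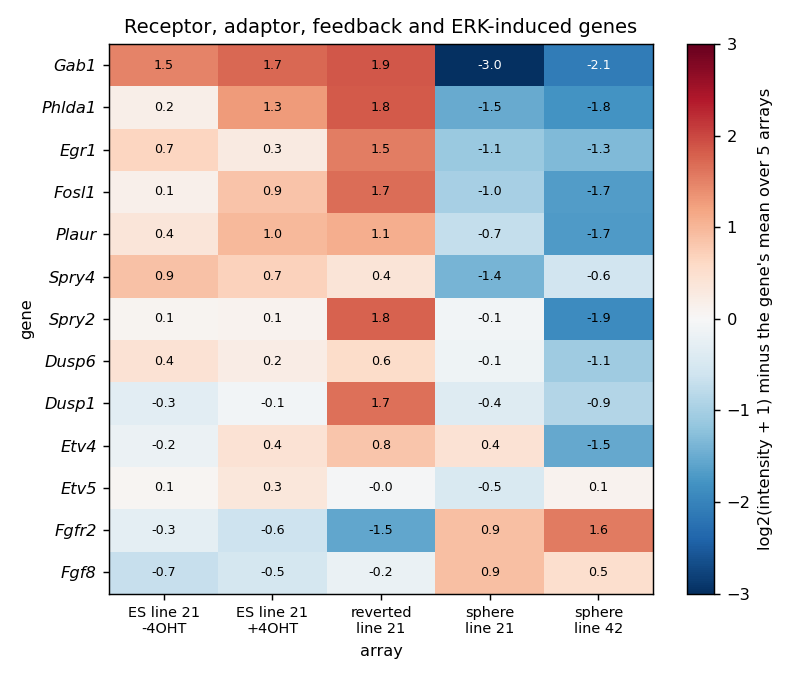
Level of Gab1, Phlda1, Egr1, Fosl1, Plaur, Spry4, Spry2, Dusp6, Dusp1, Etv4, Etv5, Fgfr2 and Fgf8 on each of the 5 arrays. Shown is log2(intensity + 1) minus the gene's own mean over the arrays, with genes as rows and arrays as columns. Reverted cells hold the highest value of Spry2, Dusp1, Phlda1, Egr1 and Fosl1, and Gab1 is lowest in the sphere columns.

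The genes whose profile over the 5 arrays was most like each of the 5 were found among the 10589 compared, as the smallest root mean square difference between log2 values centred on each gene's mean. For Fgf4 they were Mras, Cbr3 and Pdgfc, at 0.25, 0.26 and 0.31 log2 units. For Fgf5 they were Slc39a8 (0.19), Tnfrsf19 (0.28) and Fabp5 (0.31), and for Spry2 they were Glul (0.15), Egfr (0.23) and Fbxo32 (0.26). Dusp6 had the closest matches, Lrig3, Col3a1 and Gpr137 (0.07, 0.08 and 0.11). Fgf15 had the most distant, Pla2g7, Enpp2 and Esrp1 (0.48, 0.61 and 0.62). Among the 5 genes themselves, Spry2 and Dusp6 were the closest pair (0.67) and Fgf4 and Fgf5 the farthest apart (3.50). The distances were not scaled to each gene's range, so genes that vary little tend to lie closer. From lowest to highest array the range was 3.1-fold for Dusp6 and 20.9-fold for Fgf15. Col3a1 reached the level of the filter in reverted cells alone.

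In the RefSeq gene order of chromosome 7, Fgf3, Fgf4, Fgf15 and LTO1 follow each other. These neighbours did not share a pattern: Fgf3 and Fgf4 had their lowest values in both sphere lines, Fgf15 was high in line 21 spheres, and LTO1 lay between 77.7 and 121 on all arrays (log2 0.22, limma adjusted p = 0.708). Cfap299, which follows Fgf5 on chromosome 5, had intensities of 9.15, 9.32 and 29.6 in ES cells without 4OHT, with 4OHT and reverted cells, against 59.4 and 80.0 for the sphere lines (log2 2.25, limma adjusted p = 0.0939). As for Fgf5, the sphere arrays were highest and reverted cells next, though the share of all genes so placed was not counted. Cfap299 reached the level of the filter on those arrays alone. The neighbours of Spry2 and Dusp6 that were bright enough to compare had limma adjusted p-values of 0.261 or more.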

How the data were processed

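Per the labels' protocols, RNA was amplified to amino allyl antisense RNA, dye-coupled and hybridised to Toray arrays in 1 colour. The authors deposited linear probe intensity values; how they were scanned, background-corrected and normalized is not given in the sources used. The platform annotation gave 16264 of 22871 probes 1 symbol, 0 several and 6607 none, and 12239 of 16087 array symbols were current, 3787 were updated and 61 kept by the RefSeq table of GRCm38.p6. For 221 genes the probe with the highest mean was used. Values were taken to log2(intensity + 1), with a pseudocount of 1, then shifted so that the median of the 18884 probes with a value on every array was equal. Empty cells were not filled in.

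Limma 3.58.1 (R 4.3.3; lmFit, then eBayes) with Benjamini-Hochberg adjustment over all genes compared and a threshold of 0.05 was fitted with 3 residual degrees of freedom for spheres against the 3 ES-type arrays and with 1 for spheres against single arrays. It was tested on simulated data. Single arrays were compared by size, at least 2-fold. The alternatives were other pseudocounts, filters, normalization and centring, an intensity trend, and leaving out each array. The 5 genes and the lists were chosen with earlier results of these data known. Named from each list were genes that limma called, the 4 with the largest difference in spheres, fixed family members and, for each of the 5 genes, the 3 nearest profiles. Protein sequences were not used here.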

Additional observations from a re-analysis of the deposited data

Results flagged for a closer look

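Fgf15 was flagged because the 2 sphere lines lay on opposite sides of all 3 ES-type arrays. Line 42 spheres were log2 -4.38 from line 21 spheres, with line 21 at 2.28 and line 42 at -2.10 from the ES-type mean. Yet line 42 spheres were only 1.08-fold below ES cells with 4OHT, and both lay under the level of the filter on dim probes. Fgf13 showed the same arrangement, with line 42 at log2 -3.26 from line 21, line 21 at 1.07 and line 42 at -2.19 from that mean. For Fgf13, line 21 spheres, at 64.4, lay just above reverted cells, at 57.5, and line 42 spheres were dim, at 6.09. With 1 array a line, neither difference between the lines was tested.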

How the results depend on the processing

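The number of arrays limits these results. So does the dimness of Fgf4 in spheres, Fgf5 in ES cells and Fgf15 in line 42 spheres and ES cells with 4OHT. No paired analysis was possible because only line 21 has an array in more than 1 group. Line 42 spheres are thus set against line 21 cells alone. Limma called 258 genes in spheres against the 3 ES-type arrays, and 0 to 284 with 1 array left out: 0 without ES cells without 4OHT (1316 at an unadjusted p under 0.05), 32 without ES cells with 4OHT, 98 without line 42 and 148 without line 21 spheres. The Fgf4 difference then ranged from log2 -4.77 to -3.56, that of Fgf5 from 1.81 to 3.17, that of Spry2 from -2.57 to -0.70, that of Dusp6 from -1.49 to -0.50 and that of Fgf15 from -2.10 to 2.28, with a change of sign without ES cells with 4OHT (-0.91) or line 21 spheres. The Fgf15 difference from reverted cells was -1.48, and ranged from -3.67 (without line 21 spheres) to 0.71 (without line 42 spheres). Counts by size in 1 sphere line, in place of both, were 1890 to 2266 against 1082 for ES cells without 4OHT, 2132 to 2702 against 1336 for ES cells with 4OHT and 1705 to 2284 against 1035 for reverted cells; they are larger because 1 line has to pass in place of both. For ES cells with against without 4OHT, the 488 genes became 311 with a pseudocount of 16, 752 with no filter on dim probes, 313 with a filter at the 60th percentile and 0 by limma with the spread of the sphere arrays (147 at an unadjusted p under 0.05). By that limma fit the 1145 genes that set reverted cells apart from ES cells without 4OHT became 0 (327 at an unadjusted p under 0.05). The Phlda1 call was lost with a pseudocount of 16 (adjusted p = 0.0584), quantile normalization (0.0506) or no centring (0.0507). Other causes of these changes were not tested. The Fgf4 call held under all 7 alternatives that kept every array, with adjusted p-values from 0.0264 to 0.034.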

Other observations

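The primed epiblast markers did not move as one, and those named here were chosen after their values were seen. Of the 9 compared in spheres against the 3 ES-type arrays, 4 were at least 2-fold higher and 3 lower. Of all genes, 15.1% were that far apart in either direction. Sfrp2, a secreted Wnt modulator, had intensities of 81.4 in ES cells without 4OHT, 50.3 with 4OHT, 92.2 in reverted cells, 201 in line 21 spheres and 186 in line 42 spheres. Zic2 had 79.0, 103, 132, 413 and 158 on the same arrays, and Fzd2, a Wnt receptor, had 36.8, 34.0, 30.4, 245 and 52.7. These 3 were, like Fgf5, higher in both sphere lines than on every ES-type array, though the share of all genes so placed was not counted. Otx2 had 681, 263, 1549, 634 and 146, and T, a mesoderm factor, had 22.6, 15.5, 305, 193 and 20.0, both with their 2 lowest values, like Fgf15, in ES cells with 4OHT and line 42 spheres. For T, those arrays and ES cells without 4OHT all lay under the level of the filter, so their order says little. The 10 markers on the array summed to 7320, 3338, 7521, 3901 and 1586, and without Dnmt3b, the brightest of them on the array of ES cells without 4OHT, to 1552, 717, 3323, 2011 and 757.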
